A study of Mus musculus with 66 samples.

Results

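The 9 genes Gnal, Gng7, Adcy5, Pde10a, Pde1b, Ppp1r1b, Arpp21, Rgs9 and Rasd2, which act in the cAMP and dopamine signalling of striatal neurons, were followed across every library of the series. They were chosen by symbol, each matched 1 of the 24138 genes of the deposited FPKM table, and all 9 passed the filter on low values. RNA came from punches of the nucleus accumbens (NAcc), the ventral part of the striatum, of C57BL/6 mice (C57BL/6J background in the study's own description). Wild-type (WT) mice were compared with iMSN-D2RKO mice, in which a Cre driven by the D1R promoter removes floxed D2R from the neurons of the indirect pathway, so that other cells with D2R can still make it. Mice received saline or cocaine at 20 mg/kg into the peritoneum at ZT3, and tissue was taken at ZT7, ZT11, ZT15, ZT19 or ZT23, or at ZT3 as the baseline. This gave 22 groups of 3 libraries, 66 in all and 33 per genotype, with light hours at ZT3, ZT7 and ZT11 and dark hours at ZT15, ZT19 and ZT23. The ZT3 libraries of a genotype belong to its saline and its cocaine series, so comparisons within both series share them. The labels do not say that the 3 libraries of a group came from separate mice, so p-values measure the spread between these libraries, which may be technical.

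In spiny projection neurons, dopamine acts on D1 and D2 receptors, which drive cAMP in opposite directions. D1 receptors couple to the G protein alpha subunit Golf, encoded by Gnal, which works with the gamma subunit encoded by Gng7 to stimulate adenylyl cyclase 5, encoded by Adcy5, whereas D2 receptors couple to inhibitory G proteins. The phosphodiesterases Pde10a and Pde1b break cyclic nucleotides down, and protein kinase A, switched on by cAMP, phosphorylates DARPP-32 (Ppp1r1b), an inhibitor of protein phosphatase when phosphorylated, and ARPP-21 (Arpp21). Rgs9 shortens signalling by inhibitory G proteins, and Rasd2, also called Rhes, is a striatal small GTP-binding protein that dampens signalling through G proteins and cAMP.

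RefSeq windows around the start sites were read for Gng7, Adcy5 and Pde1b, whose levels moved most closely together over all 66 libraries. Such windows were also read for Pde10a, which was called rhythmic. Each window holds 250 bases before and 50 bases from the start, on GRCm38.p6, written 5′ to 3′ on the strand of the gene. Capitals mark the GC box GGGCGG, the cAMP response core TGACG and the E-box CACGTG, each on either strand, so that CCGCCC and CGTCA mark matches on the other strand. The first start of Gng7 lies at chr10:81014876-81015175 and its second start at chr10:81001316-81001615, both on the reverse strand. On the forward strand lie Adcy5 at chr16:35154614-35154913, Pde1b at chr15:103502784-103503083 and Pde10a at chr17:8801495-8801794. The number of a start is its order in the search and not its place in the gene. The Pde10a window lies inside the gene, whose span begins at 8525187. The Adcy5 window also lies inside a span, which begins at 35154494. Neither window therefore holds the outermost start of its gene.
Gng7 first start: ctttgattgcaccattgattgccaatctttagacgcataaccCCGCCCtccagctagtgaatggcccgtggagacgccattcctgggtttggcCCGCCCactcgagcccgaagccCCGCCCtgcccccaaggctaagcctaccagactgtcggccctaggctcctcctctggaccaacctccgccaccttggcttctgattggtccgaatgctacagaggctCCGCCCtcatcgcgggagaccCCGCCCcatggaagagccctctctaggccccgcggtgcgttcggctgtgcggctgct
Gng7 second start: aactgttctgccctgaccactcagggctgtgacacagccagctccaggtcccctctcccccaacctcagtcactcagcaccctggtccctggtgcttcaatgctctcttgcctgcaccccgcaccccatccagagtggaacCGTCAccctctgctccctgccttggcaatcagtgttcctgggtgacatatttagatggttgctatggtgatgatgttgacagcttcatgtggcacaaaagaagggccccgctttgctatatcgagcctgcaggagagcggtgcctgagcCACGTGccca
Adcy5: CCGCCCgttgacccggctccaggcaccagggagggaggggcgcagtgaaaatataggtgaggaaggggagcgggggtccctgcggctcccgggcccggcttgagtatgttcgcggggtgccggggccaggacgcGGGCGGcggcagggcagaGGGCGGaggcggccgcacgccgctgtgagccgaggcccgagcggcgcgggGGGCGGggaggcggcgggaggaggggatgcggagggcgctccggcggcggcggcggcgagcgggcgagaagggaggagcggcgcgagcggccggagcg
Pde1b first start: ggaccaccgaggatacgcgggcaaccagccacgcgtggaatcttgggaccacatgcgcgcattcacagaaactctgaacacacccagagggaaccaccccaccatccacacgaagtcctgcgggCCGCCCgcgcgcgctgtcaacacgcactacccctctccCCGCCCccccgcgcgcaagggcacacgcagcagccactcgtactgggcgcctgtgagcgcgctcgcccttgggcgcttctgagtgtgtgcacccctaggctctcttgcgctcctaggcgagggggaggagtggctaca
Pde10a first start: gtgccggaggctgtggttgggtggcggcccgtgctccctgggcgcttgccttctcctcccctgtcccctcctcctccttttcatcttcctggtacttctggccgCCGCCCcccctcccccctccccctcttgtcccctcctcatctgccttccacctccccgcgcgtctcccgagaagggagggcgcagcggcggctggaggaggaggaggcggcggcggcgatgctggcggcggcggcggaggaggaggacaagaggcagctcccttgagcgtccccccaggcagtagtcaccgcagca

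Windows on chromosome 18, where Gnal lies, were left out of the search. Of the 9 genes, 7 had a RefSeq window among the rest, with 19 windows in all. Gnal was therefore not searched, and Ppp1r1b matched no window. The GC box occurred in 6 of these 19 windows, among them 5 matches in the first window of Gng7, 4 in Adcy5 and 2 in the first window of Pde1b. It occurs in 35.7% of the 32851 windows searched, which are all windows meant below. The full cAMP response element TGACGTCA, which contains the core, was found in 0 of the 19 windows (1.79% of all windows). The core TGACG was in 4 (20.8% of all), namely 3 windows of Arpp21 and the second window of Gng7. Windows 5 and 6 of Arpp21 overlap and hold the same match, and Arpp21 has 9 of the 19 windows. That Gng7 window also held the single E-box CACGTG of the 19 (7.15% of all windows), and the D-box TTATGTAA was in 0 (0.938% of all). These matches describe letters in a window and not sites in use.

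Drd2, the deleted gene, did not tell the genotypes apart over all 66 libraries. Its FPKM ran from 99.1 over a median of 129 to 304 in the 33 WT libraries and from 78.0 over 112 to 375 in the 33 libraries labelled iMSN-D2RKO, so the ranges overlapped. Its difference between the genotypes was 0.01 on the log2(FPKM + 1) scale after saline and -0.25 after cocaine, and neither was called by limma (adjusted p = 0.996 and 1). Levels of Drd2 over all libraries therefore do not check the labels, and every direction between genotypes below is one between labels. Drd2 was 1.04 higher in the set-apart libraries described below, and its difference between genotypes without them is not given here. The paper states that loss of D2R from these neurons was shown earlier by ligand binding and by in situ probes for exon 2. The FPKM are per gene and do not single out an exon.

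A group of 13 libraries stood apart on the first axis of differences within groups, which held 43.6% of that variance. These set-apart libraries were 6 WT and 7 iMSN-D2RKO, and 12 of the 13 came from the 36 libraries of dark hours. They covered 4 of 9 dark libraries of the iMSN-D2RKO saline series and 3 of 9 in WT saline and WT cocaine. Without them WT at ZT19 after cocaine keeps 1 library, replicate 2, as do WT (replicate 3) and iMSN-D2RKO (replicate 2) at ZT19 after saline. Among the other libraries, compared with those of their group that were not set apart, a further 2 lay farthest from the rest of their group, iMSN-D2RKO ZT7 saline replicate 1 by a root mean square difference of 0.94 on the log2 scale and WT ZT15 cocaine replicate 3 by 0.83, and the next lay at 0.60. The first also had the highest summed FPKM, 690048 against a median of 396432. Libraries left as the only one of their group at ZT19 have no such distance and were not ranked. Of these, WT ZT19 cocaine replicate 2 lay nearest to the set-apart libraries on the first axis, at 15.1, where those began at 44.3. Markers of spiny neurons were above 0 in every library for 11 of 11 genes, and their summed FPKM was 1934 to 11406. Between set-apart and other libraries the median sums were 3604 and 2878 for spiny neurons, 1570 and 1158 for interneurons, 184 and 207 for cortical projection neurons, and 23.1 and 12.5 for thalamic and septal neurons. They were 2442 and 3320 for oligodendrocytes, 586 and 458 for astrocytes, 146 and 145 for microglia, 62.5 and 71.2 for endothelium, and 8.91 and 9.58 for choroid plexus and ependyma. Only the choroid plexus and cortical lists held genes at 0 in some library. Read depth is unknown for FPKM, and in tissue a lower level can mean fewer cells of a type or less RNA per cell, which cannot be told apart here.

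The 9 genes were among the more abundant transcripts of the table, and DARPP-32 stood highest. FPKM are scaled to transcript length. They still varied with base composition between libraries, as given below, so small ratios between genes describe FPKM and need not be those of transcript numbers. Mean FPKM over the 66 libraries was 1148 for Ppp1r1b (rank 14 of 24138), 522 for Arpp21, 434 for Pde1b, 384 for Gng7, 352 for Adcy5, 246 for Rasd2, 225 for Rgs9, 185 for Pde10a and 166 for Gnal (rank 364). Together they held between 0.527% and 1.42% of a library's summed FPKM, with a median of 0.895%. Ppp1r1b exceeded Arpp21 in 66 of 66 libraries, 2.14-fold in geometric mean, and Adcy5 exceeded Rasd2 in 62 of 66, 1.42-fold. Pde1b exceeded Gng7 in 57 and Gng7 exceeded Adcy5 in 59 of 66 libraries, by 1.12-fold and 1.10-fold, which was more than 1 SD of the paired ratio. The neighbours Arpp21 and Pde1b, Rasd2 and Rgs9, Rgs9 and Pde10a, and Pde10a and Gnal did not differ beyond 1 SD of their ratio. Rasd2 exceeded Rgs9 in 48 of the 53 other libraries and in 4 of the 13 set-apart ones.

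**Figure D1:**
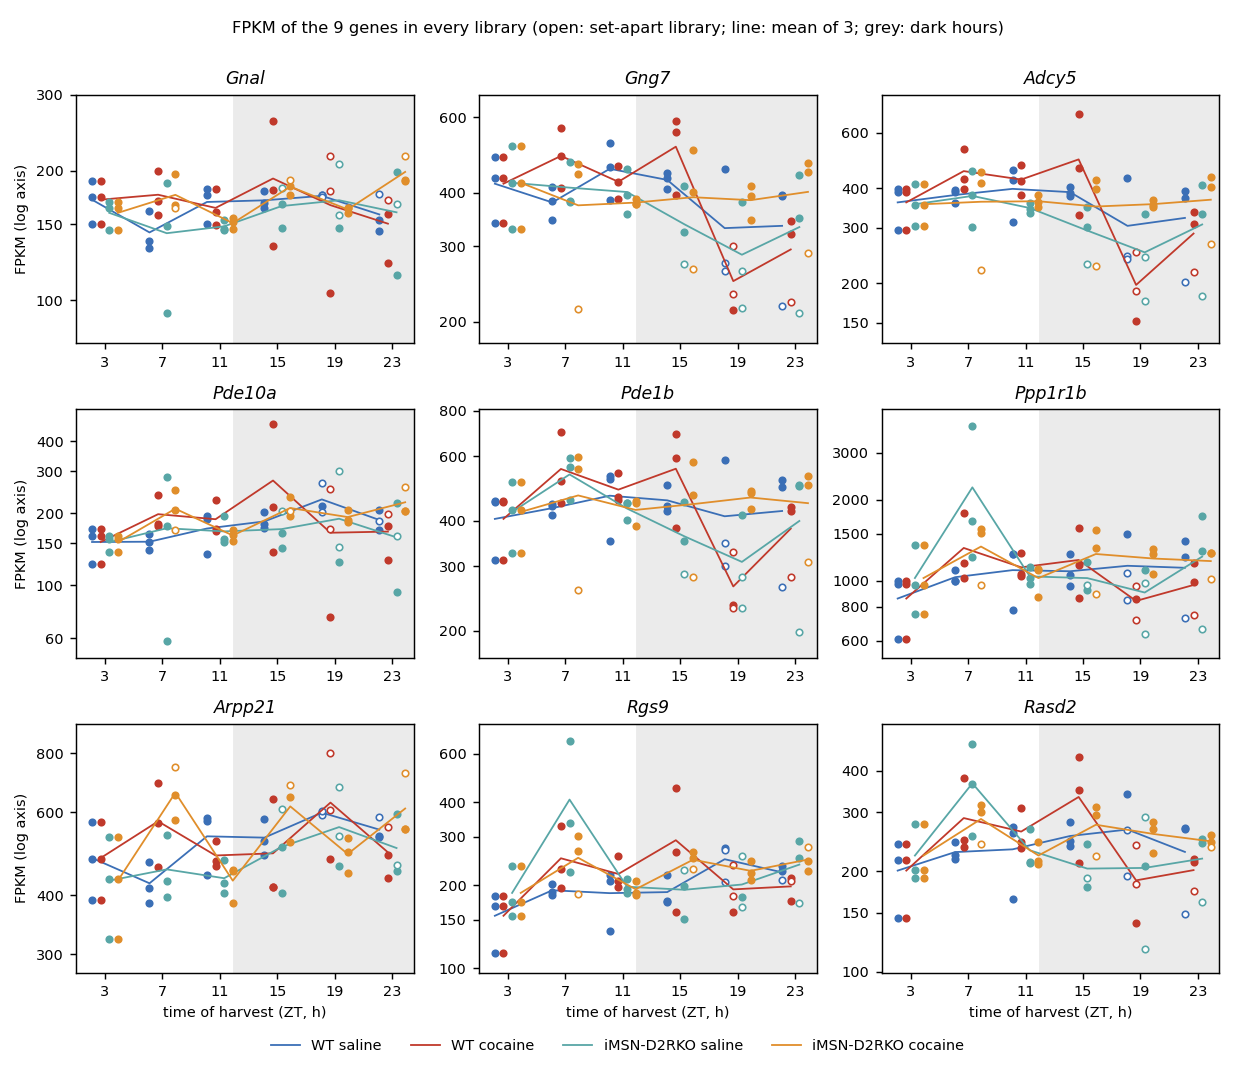
FPKM (log axis) of each of the 9 genes against the time of harvest in hours (ZT), with 1 point per library, open where the library is set apart, a line through the mean of 3, and the 4 series of genotype and treatment in colour. Grey marks dark hours, and the ZT3 points of a genotype are drawn in both of its series. In Gng7, Adcy5 and Pde1b the open points lie at the bottom of the panels, whereas in Gnal and Arpp21 they lie in the middle or at the top.

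The widest ranges belonged to single libraries. Pde10a, on chromosome 17, ran from 58.6 FPKM in iMSN-D2RKO ZT7 saline replicate 1 to 472 in WT ZT15 cocaine replicate 3, an 8.05-fold range. Ppp1r1b, on chromosome 11 at 98348406 to 98357796, ran from 609 in WT ZT3 replicate 2 to 3779 in iMSN-D2RKO ZT7 saline replicate 1. That library also held the highest Rgs9 (669), Rasd2 (479) and Drd2 (375) and the lowest Gnal (93.7). Its summed interneuron markers were 3974 and its spiny neuron markers 11406. WT ZT15 cocaine replicate 3 held the highest Gnal (261), Gng7 (590), Adcy5 (689) and Pde10a. WT ZT19 cocaine replicate 2 held the lowest Adcy5 (152). Arpp21, on chromosome 9, had the narrowest range, from 323 to 802, which is 2.49-fold. Within groups the SD on the log2 scale was 0.23 for Arpp21 to 0.45 for Pde10a, and the median over 9584 genes with a mean of at least 5 FPKM was 0.28.

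In the set-apart libraries, members of the same signalling chain lay on different sides of the others. In the 10 groups that hold both kinds, Pde1b differed by -0.75 on the log2 scale (set-apart minus others, mean over groups), Adcy5 by -0.65, Gng7 by -0.64 and Ppp1r1b by -0.55. Each of these was lower in at least 9 of 10 groups, and Rasd2, at -0.29, in 9. Rgs9 differed by -0.05 and was lower in 5 of 10 groups. Gnal, at 0.22, and Arpp21, at 0.25, were higher in 8 of 10 groups, and Pde10a, at 0.31, in 7. For Gng7 the set-apart libraries ran from 210 to 301 FPKM around a median of 263, and the other libraries had a median of 410. For Adcy5 they ran from 176 to 266 around 228, against a median of 381 in the others. For Arpp21 they ran from 465 to 802 around 607, against 478. The axis was drawn from these same libraries and genes, so these differences are given as a description.

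The split followed the base composition of the transcripts, which the choice of genes did not use. The 5 genes lower by over 0.25 had a GC content of 53.7% to 61.0% in their longest coding transcript, and the other 4 of 48.2% to 51.6%. Over 8875 genes the same difference had a Spearman correlation of -0.65 with GC content and 0.43 with transcript length. The genes share libraries and are not independent. Within a library, the log2 level of genes of highest GC content (median 61.7%) minus that of genes of lowest GC content (39.1%), relative to the mean library, was -1.35 to -1.03 in the set-apart libraries and -0.41 to 1.34 in the others. The lowest value of the others belonged to WT ZT19 cocaine replicate 2. Whether base composition sets any of the levels was not tested, and the comparisons below were also run with the relation to GC content removed from every library, an alternative chosen after seeing the data. In those runs Gng7, in dark against light hours of WT cocaine, was the only one of the 9 genes called in any comparison of level or rhythm.

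**Figure D2:**
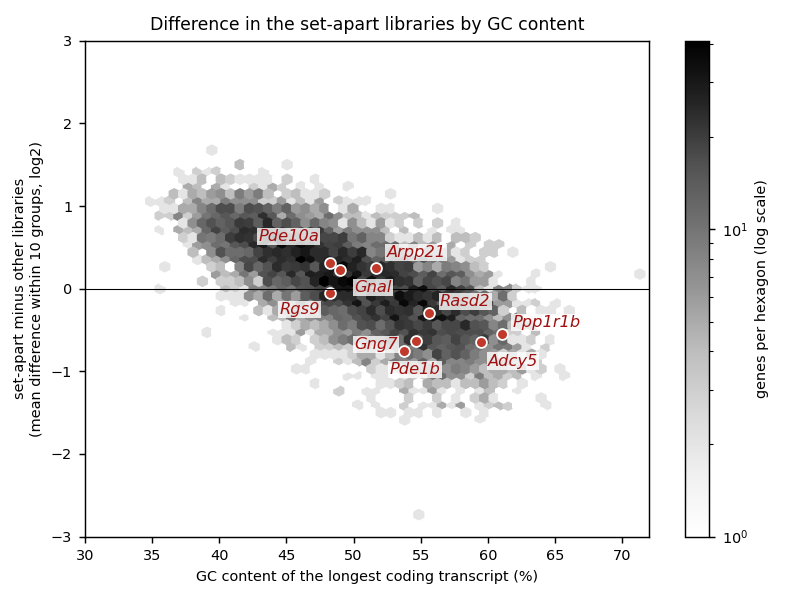
Difference between set-apart and other libraries on the log2 scale, as the mean within 10 groups, against the GC content (%) of the longest coding transcript for 8875 genes (grey hexagons, darker for more genes) and the 9 genes (red). Gng7, Adcy5, Pde1b, Ppp1r1b and Rasd2 lie below 0 at 53.7% to 61.0% GC, and Pde10a, Gnal and Arpp21 lie above 0 at 48.3% to 51.6%.

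Across libraries the 9 genes did not vary as 1 block. Over 66 libraries, which share their scaling and base composition, Pearson's r of log2(FPKM + 1) was 0.96 between Gng7 and Adcy5, 0.94 between Adcy5 and Pde1b and 0.93 between Gng7 and Pde1b. Gnal, the partner of Gng7 in the same G protein, correlated with Gng7 at 0.21, and most closely with Pde10a, at 0.89. A second set joined Ppp1r1b with Rasd2 (0.85), Rgs9 with Rasd2 (0.82) and Ppp1r1b with Rgs9 (0.81). The lowest of the 36 pairs was Adcy5 with Arpp21, at -0.13. In the 53 libraries without the set-apart ones the median of the 36 pairs was 0.61, compared with 0.34 in all 66, and Gnal correlated with Gng7 at 0.78 and with Adcy5 at 0.80. Ppp1r1b with Gnal was at -0.10 over 66 libraries and -0.00 over 53.

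**Figure D3:**
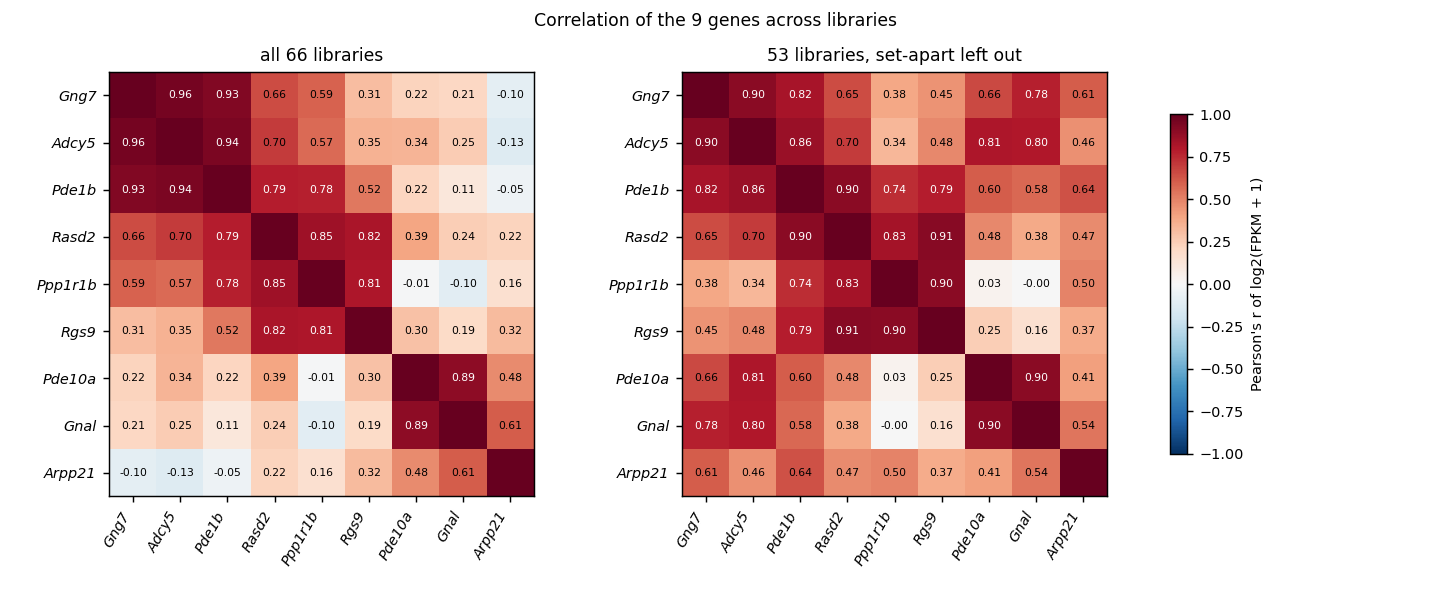
Pearson's r of log2(FPKM + 1) for each pair of the 9 genes over all 66 libraries (left) and over the 53 libraries left without the set-apart ones (right). On the left Gng7, Adcy5 and Pde1b form 1 block of high values, and Rasd2, Ppp1r1b and Rgs9 another. On the right Pde1b with Rasd2 reaches 0.90, as does Gng7 with Adcy5, so the blocks are not separate there. Pde10a with Gnal reaches 0.89 on the left and 0.90 on the right.

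The genes of most similar pattern were found by the same r over 66 libraries among genes with a mean of at least 5 FPKM. Gng7 was most like Adcy5, then Neurl1a (0.94) and Cx3cl1 (0.93), and Adcy5 was most like Gng7, then Scn4b (0.94) and Pde1b. Pde1b was most like the potassium channel partner Kcnip2 (0.96), Asic4 (0.95) and the muscarinic receptor Chrm4 (0.94). Pde10a was most like Itpr1, an inositol trisphosphate receptor (0.94), Dach1 (0.91) and Zswim6 (0.90), and Gnal most like Sipa1l1 (0.91), 5330417C22Rik (0.90) and Pde10a. Ppp1r1b was most like Tesc (0.93), Syndig1l (0.91) and Stk32c (0.91), and Arpp21 most like Lrrtm3 (0.87), Lppr4 (0.85) and Klhl13 (0.85). Rgs9 was most like Phactr1, Tbc1d8 and Kcnk2 (each 0.85), and Rasd2 most like Lrrc10b (0.90), Syndig1l (0.90) and the striatal phosphatase Ptpn5 (0.89). All genes of this paragraph had r of at least 0.80 over the 53 other libraries too.

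Between dark and light hours, only Gng7 passed the test, and only in the iMSN-D2RKO saline series. A gene was called here and below at an adjusted p under 0.05 by limma with Benjamini-Hochberg adjustment over 14643 genes. In that series Gng7 ran from 330 FPKM over a median of 395 to 515 in the 9 light libraries and from 210 over 325 to 439 in the 9 dark ones. The ranges overlapped, and the 4 lowest values, up to 273, were the set-apart libraries. Gng7 fell by 0.40 on the log2 scale (95% interval -0.71 to -0.09, adjusted p = 0.0485). This is 1 of 9 genes, where 27.3% of all genes were called (2554 higher and 1447 lower in the dark).

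The call for Gng7 was lost without the set-apart libraries (-0.10, adjusted p = 0.816) and with the relation to GC content removed (-0.27, adjusted p = 0.131). Over 34 alternatives its adjusted p lay between 0.0151 and 0.816. It was also lost with the replicate number as a block (adjusted p = 0.0524), a number that did not pair the libraries. In that series it was lost without ZT3 replicate 1 (adjusted p = 0.0661) or 3 (0.0991), ZT7 replicate 1 (0.0580) or 3 (0.0714), ZT11 replicate 2 (0.0860) or 3 (0.0653), ZT15 replicate 1 (0.0588) or 2 (0.130), ZT19 replicate 1 (0.0924) or 3 (0.122), and ZT23 replicate 3 (0.184). Of all genes, 31 were called in this series without the set-apart libraries. With the relation to GC content removed 651 were higher and 956 lower, and with median ratio scaling 1831 were higher and 2069 lower.

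Other genes of the same series lay near the threshold. Pde1b differed by -0.43 between dark and light (adjusted p = 0.0643), Rasd2 by -0.37 (0.0661), Adcy5 by -0.38 (0.0696), Arpp21 by 0.25 (0.0785) and Ppp1r1b by -0.33 (0.149). The median of the 9 was -0.33, and 0.03 over all genes. Without the set-apart libraries the 9 differences lay between -0.25 (Rasd2) and 0.13 (Arpp21). Pde1b and Adcy5 were each called when 1 of 4 libraries was left out, ZT15 replicate 3 (adjusted p = 0.0419 and 0.0490), ZT19 replicate 2 (0.0247 and 0.0258), ZT23 replicate 1 (0.0424 and 0.0392) or ZT23 replicate 2 (0.0268 and 0.0470). Rasd2 was called without ZT7 replicate 2 (0.0348), ZT15 replicate 3 (0.0460), ZT19 replicate 1 (0.0479) or ZT23 replicate 2 (0.0405). Arpp21 was called without ZT3 replicate 3 (0.0483), ZT7 replicate 3 (0.0455), ZT15 replicate 1 (0.0420) or ZT19 replicate 2 (0.0351).

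In the WT cocaine series the cyclase and its G protein partner had the largest differences. By limma 0 of the 9 genes were called, where 13.7% of all genes were called. At an unadjusted p under 0.05 there were 2 of the 9, against 5056 of all 14643 genes. Adcy5, on chromosome 16 at 35154494 to 35305743, ran from 295 over a median of 399 to 533 FPKM in the 9 light libraries and from 152 over 308 to 689 in the 9 dark ones. The dark range enclosed the light one, with the highest value at ZT15 and the lowest at ZT19. Adcy5 differed by -0.47 (95% interval -0.80 to -0.13, adjusted p = 0.0502) and Gng7 by -0.41 (-0.72 to -0.10, adjusted p = 0.0623). Without the set-apart libraries both passed the test, at -0.52 (adjusted p = 0.0024) and -0.42 (adjusted p = 0.0077), which is 2 of 9 genes where 18.1% of all genes were called. That result rests on WT ZT19 cocaine replicate 2, since without the set-apart libraries and ZT19 the count was 0 again. That library had summed markers of 2356 FPKM for interneurons, 31.5 for thalamic and septal neurons and 25.5 for choroid plexus and ependyma, above the medians of 1158, 12.5 and 9.58 in the libraries not set apart, and 2927 for spiny neurons, near their median of 2878. The part of these in the result was not tested. Adcy5 also passed without WT ZT15 cocaine replicate 3 (adjusted p = 0.0289), ZT19 cocaine replicate 3 (0.0455), or ZT23 cocaine replicate 1 (0.0412) or 2 (0.0386), and Gng7 without the last (0.0459). Over 36 alternatives the adjusted p lay between 7.6e-06 and 0.865 for Adcy5 and between 0.0013 and 0.742 for Gng7. With the relation to GC content removed Adcy5 stood at -0.30 (adjusted p = 0.103) and Gng7 at -0.35 (adjusted p = 0.0496).

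In WT saline 0 of 9 genes were called by limma, where 2.75% of all genes were called. At an unadjusted p under 0.05 there were 2 of the 9 (Arpp21 and Rgs9), against 3979 of all 14643 genes. Arpp21 differed by 0.24 (95% interval 0.02 to 0.46, adjusted p = 0.157). In iMSN-D2RKO cocaine 0 of 9 genes were called, where 0.942% of all genes were called. At an unadjusted p under 0.05 there were 0 of the 9, against 1826 of all genes. Adcy5 and Gng7 differed by -0.01 and 0.01 with intervals of -0.34 to 0.32 and -0.30 to 0.32. The difference between the genotypes in the dark to light contrast was called for 0 of 9 genes after saline, where 0% of all genes were called, and for 0 of 9 after cocaine, again with 0% of all genes. At an unadjusted p under 0.05 these counts were 2 (Rasd2, -0.54, and Rgs9, -0.52) and 0, against 606 and 311 of all genes. The series of a genotype share their ZT3 libraries. For all genes the split of calls moved with the scaling in the other 3 series too, from 294 higher and 109 lower in WT saline, 1449 and 555 in WT cocaine and 90 and 48 in iMSN-D2RKO cocaine to 153 and 172, 940 and 893, and 54 and 67 with median ratio scaling, and to 210 and 188, 995 and 1060, and 88 and 120 with the relation to GC content removed.

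**Figure D4:**
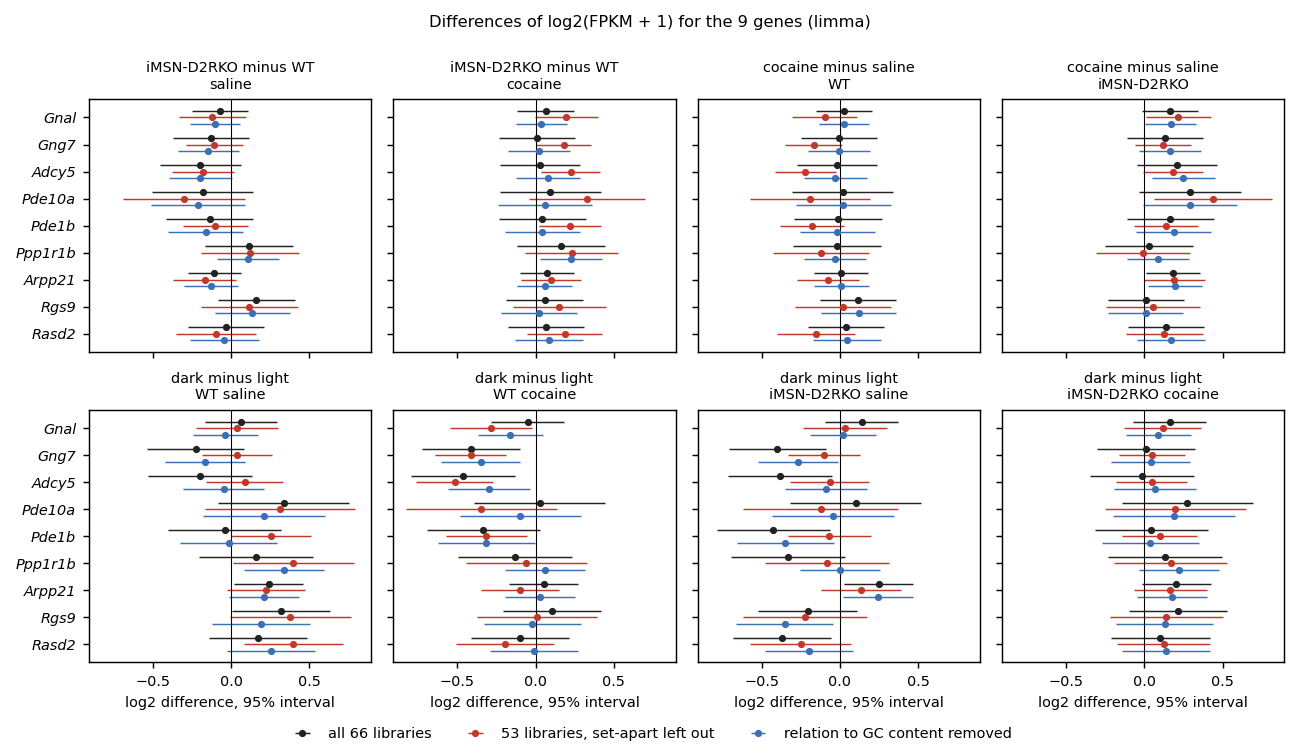
Differences of log2(FPKM + 1) with 95% intervals from limma for the 9 genes in 8 comparisons, over all 66 libraries (black), without the set-apart libraries (red) and with the relation to GC content removed (blue). In the iMSN-D2RKO saline panel of dark minus light the black points of Gng7, Adcy5, Pde1b and Rasd2 lie between -0.43 and -0.37, and the red ones between -0.25 and -0.07.

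Tested for a rhythm over the 6 time points of a series, 1 of the 9 genes was called, Pde10a in WT saline. The test was JTK_CYCLE, which uses the exact distribution of its rank statistic, and a gene was called at a corrected p under 0.01. Pde10a was at 160, 123 and 172 FPKM at ZT3, 164, 140 and 152 at ZT7, 189, 194 and 135 at ZT11, 202, 173 and 180 at ZT15, 268, 202 and 215 at ZT19, and 185, 207 and 170 at ZT23. Each value at ZT19 was above each at ZT3 and ZT7. The best period was 24 h with a peak at ZT19 (corrected exact p = 0.00755), and Arpp21 had the same period and peak (0.0108). In WT saline 9.81% of all genes were called, and the Benjamini-Hochberg q over all of them was 0.0779 for Pde10a.

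The call for Pde10a did not pass without the set-apart libraries (corrected exact p = 0.0629), of which 2 were at ZT19, with the relation to GC content removed (0.104), without ZT19 (0.300) or with median ratio scaling (0.0199). It was also lost without any of 11 single libraries, namely ZT3 replicate 1 or 3, ZT7 replicate 2 or 3, ZT15 replicate 1 or ZT19 replicate 2 (0.0154 each), ZT3 replicate 2, ZT7 replicate 1 or ZT23 replicate 3 (0.0108 each), and ZT19 replicate 1 or 3 (0.0300 each). Arpp21 was called without ZT3 replicate 1, ZT11 replicate 1, or ZT15 replicate 2 or 3 (0.00622 each), ZT11 replicate 2 (0.00945), or ZT23 replicate 2 or 3 (0.00507 each).

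In WT cocaine 0 of the 9 genes were called as rhythmic by JTK_CYCLE, where 7.61% of all genes were called. At a corrected p under 0.05 were 2780 of all 14268 genes tested and 4 of the 9. These 4 were Adcy5 (0.0106), Pde1b (0.0154) and Gng7 (0.0476), each with a 24 h period and a peak at ZT9, and Ppp1r1b (0.0359). A cosine of 24 h fitted by limma called 2 of the 9 there at an adjusted p under 0.05, Adcy5 and Gng7. The share of all genes called by the cosine is not given here, and the 7.61% belongs to JTK_CYCLE. Adcy5 passed JTK_CYCLE without WT ZT3 replicate 2 (0.00745) or WT ZT15 cocaine replicate 1 (0.00339) or 3 (0.00143), and Pde1b without WT ZT7 cocaine replicate 3 or either of the latter 2 (0.00401 each). In iMSN-D2RKO saline 0 were called, where 2.58% of all genes were called. Pde1b had a corrected p of 0.0300 there, or 0.00622 without ZT15 replicate 3, and 1602 of all 14135 genes had one under 0.05. In iMSN-D2RKO cocaine 0 were called, where 1.1% of all genes were called, and all 9 genes had a corrected p of 1. Whether rhythms differed between the series was not tested.

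Between the genotypes, none of the 9 genes was called at ZT3, after saline or after cocaine, in 27 tests by limma. At an unadjusted p under 0.05 the counts were 0 in each of the 3 comparisons, against 298, 1648 and 725 of all 14643 genes. Of all genes 0.041% were called at ZT3, 0.212% after saline and 0.109% after cocaine. At ZT3, Ppp1r1b was at 998, 609 and 973 FPKM in WT and at 966, 753 and 1356 in iMSN-D2RKO, with overlap. Its difference, labelled iMSN-D2RKO minus WT, was 0.25 (95% interval -0.39 to 0.88). After saline the differences lay between -0.20 (Adcy5, interval -0.46 to 0.06) and 0.16 (Rgs9), with a median of -0.11 against 0.01 over all genes. After cocaine all 9 lay above 0, from 0.01 (Gng7, interval -0.23 to 0.25) to 0.16 (Ppp1r1b, -0.12 to 0.45), with a median of 0.06. The widest intervals of the 9 genes reached from -0.51 to 0.45 in these means over 5 time points. Without the set-apart libraries and the 2 farthest from the rest of their group, an alternative chosen after seeing the data, Adcy5 (0.28), Gnal (0.25) and Pde10a (0.42) were called after cocaine (adjusted p = 0.0127, 0.0309 and 0.0163), where 10.3% of all genes were called, against 0.109% over all libraries. When ZT19 was also left out none of the 9 was called, and 6.66% of all genes were.

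Cocaine did not give a called difference from saline in any of the 9 genes by limma, as a mean over ZT7 to ZT23, in either genotype. In WT the differences, cocaine minus saline, lay between -0.02 and 0.11 (median 0.01), and 0.0137% of all genes were called. An unadjusted p under 0.05 was found for 0 of the 9, against 364 of all 14643 genes. In iMSN-D2RKO all 9 lay between 0.01 and 0.29 (median 0.16), and 0% of all genes were called. There 1 of the 9 (Arpp21, 0.18, 95% interval 0.01 to 0.36) had an unadjusted p under 0.05, against 711 of all genes. Without the set-apart libraries the lowest of the 9, Ppp1r1b, stood at -0.01. The difference between the genotypes in the effect of cocaine was called for 0 of 9 genes, with 0% of all genes called. At an unadjusted p under 0.05 there were 0 of the 9, against 271 of all genes. This difference lay between -0.10 (Rgs9) and 0.28 (Pde10a). When the set-apart libraries and the 2 farthest from the rest of their group were left out, where 7.16% of all genes were called in WT and 4.29% in the difference between the genotypes, Adcy5 was called in WT (-0.28, adjusted p = 0.0228) and in the difference between the genotypes (0.43, adjusted p = 0.0233), as was Pde10a in the latter (0.60, adjusted p = 0.0390). None of these was called when ZT19 was also left out.

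Of the 45 tests of single time points in each genotype, 0 were called by limma in WT and 0 in iMSN-D2RKO, where 0.00683% and 0.00273% of all gene tests were called. At an unadjusted p under 0.05 there were 2 in WT, Arpp21 at ZT7 and Adcy5 at ZT19, and 3 in iMSN-D2RKO, Arpp21 (0.54) and Rgs9 (-0.58) at ZT7 and Pde1b (0.63) at ZT19. Of all 14643 genes, 265 had such a p in WT at ZT7 and 718 at ZT19. In iMSN-D2RKO these numbers were 3346 at ZT7 and 2340 at ZT19. At ZT7, 4 h after the injection, all 9 differences in WT lay above 0, from 0.24 (Adcy5) to 0.42 (Arpp21), with a median of 0.33 against 0.00 over all genes. Arpp21 was at 471, 386 and 416 FPKM after saline and at 570, 694 and 458 after cocaine, and the groups overlapped. All 9 differences also shared a sign at other times. In WT at ZT23 they lay below 0 (median -0.16), and in iMSN-D2RKO at ZT15 and ZT23 above 0 (medians 0.27 and 0.28). The genes share libraries, so 1 sign in all of them is not 9 separate results. In iMSN-D2RKO at ZT7, Rgs9 was at 669, 224 and 335 FPKM after saline and at 303, 186 and 266 after cocaine, with overlap. Its difference rests on saline replicate 1, without which it was -0.15 (adjusted p = 0.851). Rgs9 was called without saline replicate 2 (-0.94, adjusted p = 0.0297), where 10.7% of all genes were called, and Arpp21 without saline replicate 3 (0.67, adjusted p = 0.0315), where 14.0% were. The difference of Pde1b at ZT19 was 0.16 without the set-apart libraries (adjusted p = 1). At ZT19 in WT, Adcy5 was at 244, 239 and 430 FPKM after saline and at 189, 152 and 252 after cocaine. Its difference was -0.59 (adjusted p = 0.951), and 4 of these 6 libraries are set apart. Without them the comparison is between 430 and 152, 1 library each, and Adcy5 (-1.49), Gng7 (-1.09), Pde1b (-1.32) and Rasd2 (-1.28) were called (adjusted p = 0.0020, 0.0111, 0.0076 and 0.0304), with the spread taken from the other groups, where 10.5% of all genes were called.

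Other genes of the pathway were followed through a list of 93 by role, of which 91 were tested. In dark against light hours of the iMSN-D2RKO saline series 20 rose and 5 fell in the dark, a share close to the 27.3% of all genes called there, with a median of 0.06 over the list and 0.03 over all genes. Ppp1r2, an inhibitor of protein phosphatase 1, rose by 0.47 (adjusted p = 0.0055), the transcription factor Atf1 by 0.38, the PKA regulatory subunit Prkar2a by 0.63, Grk4 by 0.33 and Pde1c by 0.53. Adora2a, the adenosine receptor of indirect pathway neurons, fell by 0.63 (adjusted p = 0.0258). Of 16 phosphodiesterases 6 rose and 0 fell, and of 9 PKA subunits or inhibitors 5 rose and 1 fell, where 2554 of all 14643 genes rose and 1447 fell. These counts of few genes were not tested against that background. Without the set-apart libraries 0 of the 91 genes were called in this series. In WT cocaine 4 rose, among them Pde9a (0.36) and Pde7a (0.55), and 3 fell, Cdk5r1 (-0.51), Adora2a (-0.64) and Gng5 (-0.55), which is 7 of 91 where 13.7% of all genes were called. There, 15 of the 91 were called without the set-apart libraries, where 18.1% of all genes were. After cocaine, Drd1 was 0.48 higher in the libraries labelled iMSN-D2RKO than in WT (adjusted p = 0.0090), where 0.109% of all genes were called. In the other 9 comparisons of level 0 of the 91 genes were called by limma. At an unadjusted p under 0.05 there were 0 to 20 of the 91, against 271 to 3979 of all 14643 genes.

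The level of Drd1 correlated with each of the 9 genes, at 0.34 (Arpp21) to 0.56 (Rasd2) over 66 libraries and at 0.52 to 0.65 over the 53 others, whereas that of Drd2 ran with them unevenly. Over 66 libraries Drd2 correlated with Arpp21 at 0.61, with Gng7 at -0.42 and with Adcy5 at -0.42. In the 53 libraries without the set-apart ones these were 0.32, 0.37 and 0.28, and the largest was with Rgs9, at 0.74. Adora2a, also a receptor of indirect pathway neurons, correlated at -0.17 (Arpp21) to 0.92 (Pde1b) over 66 libraries. Over the 53 its range was 0.34 (Pde10a) to 0.80 (Pde1b). In the set-apart libraries Drd2 was 1.04 higher on the log2 scale than in the others of its group, in 10 of 10 groups, whereas Gng7 and Adcy5 were lower in 9 of 10.

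On GRCm38.p6 the RefSeq gene Gng7 spans 80948624 to 81014925 of chromosome 10, Pde10a 8525187 to 8986648 of chromosome 17, Pde1b 103503034 to 103530056 of chromosome 15 and Rasd2 75213944 to 75224113 of chromosome 8. Arpp21 spans 112065091 to 112236288 of chromosome 9 and Rgs9 109225348 to 109298181 of chromosome 11, and Gnal lies on chromosome 18. Some entries overlap genes on the other strand. Exons of Gnal overlap Mppe1, those of Ppp1r1b overlap 1700003D09Rik and those of Arpp21 overlap 2900079G21Rik. The libraries were made with a stranded kit, but whether strand was used in counting is not given in the sources used here, so reads of these 3 genes and their partners may be shared.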

How the data were processed

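Poly(A) RNA of NAcc punches was sequenced by the authors as stranded single-end libraries, with base calling by CASAVA 1.8.2 per the labels. Reads were aligned to mm10 with TopHat and Bowtie2, and FPKM per gene were computed by the authors with Cufflinks, Cuffmerge, Cuffquant and Cuffnorm. The deposited table of FPKM has 72 columns, of which 6 repeat ZT3 libraries with identical values, which leaves 66 libraries. FPKM do not keep the number of reads, so depth is unknown and precision was taken from the 3 libraries of a group. From 12496 to 13028 genes per library reached 1 FPKM.

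Here log2(FPKM + 1) of 14643 genes with at least 1 FPKM in any library was fitted with limma 3.58.1 in R 4.3.3, with 1 mean for each of 22 groups, a trend and Benjamini-Hochberg adjustment. Adding 1 shrinks the differences of low genes. JTK_CYCLE with periods of 20 and 24 h and Dixon's test of replicates was run in Python 3.11.15 with scipy 1.17.1. In simulated data on 14643 genes, limma found 97% of changes of 1 (log2) and 77.5% of changes of 0.5 in the effect of cocaine in WT. At ZT7 alone these were 63.5% and 7.5%. The 200 changed genes were drawn from those with a mean of at least 5 FPKM. Noise was drawn for each gene alone, without the axis that the real libraries share. The SD within groups was 0.23 to 0.45 for the 9 genes, against a median of 0.28 over genes of that level. These shares therefore do not give the power for the 9 genes.

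Alternatives were a pseudocount of 0.1, other filters, median ratio scaling, the library score as a covariate, a replicate block, fits of single comparisons, and leaving out time points, set-apart libraries or each library. Transcript features came from GENCODE vM21 and windows from RefSeq on GRCm38.p6. Named genes are the 9 members, the 3 genes most correlated with each, up to 5 called genes per comparison from the pathway list by smallest p, Drd2, Drd1, Adora2a and Gnas, and any marker. The members and all lists were chosen with earlier results on these data known.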

Additional observations from a re-analysis of the deposited data

How the results depend on the processing

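Counts of the 9 genes called were recomputed under 733 alternatives over 18 comparisons, and 650 left the count within 1.5 times of its value. This share comes mostly from counts of 0 that stayed 0, since 16 of the 18 comparisons had 0 genes called. The count of 1 was kept in 9 of 34 alternatives for dark against light hours in iMSN-D2RKO saline. For rhythm in WT saline it was kept in 6 of 33. The 5 comparisons in which no alternative moved the count were those of genotype at ZT3, of genotype after saline, of cocaine in iMSN-D2RKO, of the genotypes in the dark to light contrast after saline, and of rhythm in iMSN-D2RKO cocaine, each with 0 genes. None of the 12 differences of single genes with an unadjusted p under 0.05, single time points aside, turned its sign under any alternative. Over all 9 genes, 83 of 630 differences did under 7 alternatives of scaling or libraries. Leaving out single libraries gave 0 to 4 genes for dark against light hours in iMSN-D2RKO saline and 0 to 2 in WT cocaine, 0 to 2 for rhythm in WT saline and in WT cocaine, 0 to 1 for rhythm in iMSN-D2RKO saline, 0 to 1 for single time points in iMSN-D2RKO, and 0 to 0 elsewhere. The shares of all genes in these fits are not set beside these counts, which are therefore not results about the 9 genes.

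For dark against light hours in iMSN-D2RKO saline the count of 1 became 0 without the filter, with the library score as a covariate, with the replicate block, with the relation to GC content removed, in a fit of that series alone, without ZT3, ZT7, ZT15, ZT19 or ZT23, and without the set-apart libraries with or without the 2 others, and 4 with median ratio scaling. With median ratio scaling 26.7% of all genes were called in that series. In WT cocaine the count of 0 became 1 with a mean of at least 1 FPKM or the GC relation removed, the latter where 15.6% of all genes were called. It became 2 with median ratio scaling (12.5% of all genes) or in a fit of that series alone, and 3 without ZT15. It also rose without the set-apart libraries, with or without the 2 others, fits that leave 1 library in WT ZT19 cocaine. In WT saline it became 2 in a fit of that series alone, and in iMSN-D2RKO cocaine 1 without ZT7. For rhythm in WT saline the count of 1 became 0 without ZT3, ZT7, ZT15 or ZT19, with median ratio scaling, with the library score or the GC relation removed and without the set-apart libraries with or without the 2 others. It became 2 without Dixon's test, without ZT11, with the block or at a corrected p under 0.05. For rhythm in WT cocaine 0 became 1 with median ratio scaling, 2 with a cosine, 3 without ZT15 and 4 at a corrected p under 0.05, and in iMSN-D2RKO saline 1 at 0.05. At that limit were 3305 of all 13940 genes in WT saline, 2780 of 14268 in WT cocaine and 1602 of 14135 in iMSN-D2RKO saline. For the other alternatives of rhythm the share of all genes is not given here. Without the set-apart libraries single time points in WT gave a count above 0. With the 2 others left out as well, so did genotype after cocaine, cocaine in WT, the difference of the cocaine effect and that of the dark to light contrast after cocaine. These fits leave 1 library each at ZT19 in WT cocaine, WT saline and iMSN-D2RKO saline, so their counts are not given. The cause was not tested. The last 4 comparisons and dark against light hours in WT cocaine returned to 0 when ZT19 was left out. That removes these single libraries together and cannot tell them apart.

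The alternatives that remove the relation to GC content, the 2 other libraries or the set-apart libraries together with ZT19 were chosen after seeing the data. Replicate numbers did not pair the libraries. Libraries of the same number deviated together with a median correlation of -0.003 over 693 pairs of groups, and the block left 16 of 18 counts as they were.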
